A study of Rattus norvegicus with 6 samples.

Results

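The adrenal steroids act on the brain through a pair of related receptors. Nr3c1 encodes the glucocorticoid receptor and Nr3c2 the mineralocorticoid receptor, both of which move to the nucleus when bound by hormone and act there as transcription factors. In the paraventricular nucleus the glucocorticoid receptor takes part in the negative feedback of corticosteroids on corticotropin-releasing hormone neurons. Fkbp5 and Sgk1 are standard readouts of receptor activity. Fkbp5 encodes a co-chaperone that lowers the hormone affinity of the glucocorticoid receptor and is itself induced by it. Sgk1 encodes a kinase that is induced by both receptors and acts on sodium transport in epithelia. Described here are the transcripts of these 4 genes, defined by identifier with no threshold on their values, out of 32402 gene identifiers in the deposited count table. They are Nr3c1 (ENSRNOG00000014096), Nr3c2 (ENSRNOG00000034007), Fkbp5 (ENSRNOG00000022523) and Sgk1 (ENSRNOG00000011815), with the symbols given alongside the identifiers in the definition of the gene group.

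RNA was sequenced from the paraventricular nucleus of male Holtzman rats, a laboratory stock, in a control group and a furosemide group of 3 libraries each. Each library was a pool of tissue from 3 rats. Treated rats received the loop diuretic furosemide at 10 mg/kg, which makes the kidney excrete sodium, and were then kept for 24 h on a diet low in sodium with distilled water. What the control rats were injected with, ate and drank, and the rats' age, are not given in the labels. The comparison asks how the receptors and their induced genes stood after this sodium loss, a state in which aldosterone, a ligand of the mineralocorticoid receptor, is known to rise in blood. No hormone level or receptor protein was analysed here.

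The libraries held 20911950 to 22495415 counts, with all 3 furosemide totals above all 3 control totals. Values are in CPM, which are counts put on a common library size after TMM adjustment, with scaling factors of 0.994 to 1.01. All 4 genes passed the filter on low counts, which left 16344 genes to be tested. Their counts per library ran from 292 for Nr3c2 to 1978 for Nr3c1. CPM is not divided by transcript length, so levels are compared here between libraries and never between genes. Because the other identifiers could not be paired with symbols, markers of the nucleus, of its neighbours and of glia were not examined, nor were the receptors' chaperones, coregulators and other target genes.

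None of the 4 transcripts differed between furosemide and control libraries in the edgeR quasi-likelihood test. The estimates were all slightly higher after furosemide, by 1.02-fold to 1.07-fold, as were those of 50.3% of all tested genes. The control and furosemide values overlapped for all 4 genes, and the share of tested genes without overlap was 13.5%. At an adjusted p under 0.05, 0 of the 4 were called, and the share called among all 16344 tested genes was 0%. At an unadjusted p under 0.05, 0 of the 4 were called, and the share among all tested genes was 8.09% (1322). With only 4 genes, a count of 0 is unremarkable at shares of this size, so neither count sets them apart. The exact test of edgeR called 45 of these 16344 genes and limma-voom 0. DESeq2 called 40 but started from 22994 genes, so both tool and gene set differed, and quasi-likelihood testing of all 22994 called 28. None of these tests called any of the 4. The median absolute log2 fold change was 0.06 over the 4 genes and 0.06 over all tested genes.

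**Figure D1:**
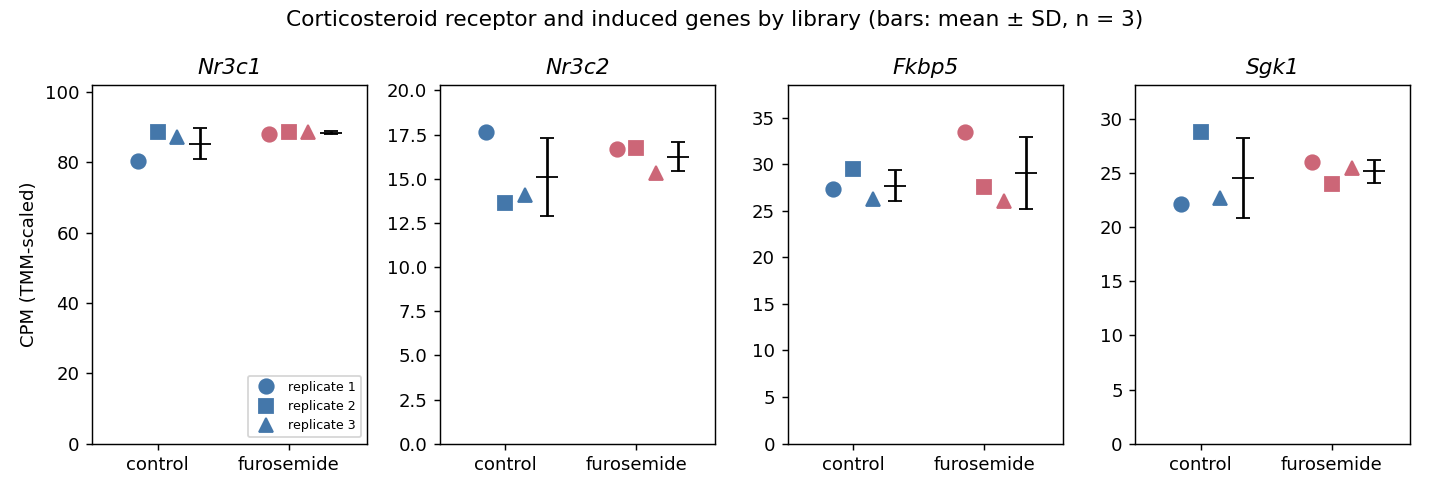
TMM-scaled CPM of Nr3c1, Nr3c2, Fkbp5 and Sgk1 in each library, with each vertical axis starting at 0. Points are libraries (symbols mark replicate numbers) and bars the mean ± SD of 3 libraries. The groups overlap in every panel, and relative to the mean the widest spreads are those of the control libraries for Sgk1 (coefficient of variation 15.1%) and Nr3c2 (14.7%) and of the furosemide libraries for Fkbp5 (13.4%).

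The glucocorticoid receptor transcript Nr3c1 stood at 80.2, 88.5 and 87.1 CPM in control libraries 1, 2 and 3. It stood at 88.0, 88.7 and 88.5 CPM in furosemide libraries 1, 2 and 3. Only control 1 was apart, below the other 5 libraries, which lay between 87.1 and 88.7 CPM. The mean was 85.3 ± 4.45 CPM for the controls and 88.4 ± 0.346 CPM for the furosemide libraries (SD, 3 libraries each). The log2 fold change was 0.05 (SE 0.04), and its 95% interval ran from -0.04 to 0.14 (edgeR adjusted p = 0.810). As a fold change this interval ran from 0.973 to 1.10, so for this transcript a change above 1.10-fold in the pooled tissue lay outside it. Nr3c1 was the most deeply counted of the 4, and its estimate had the smallest standard error. Without control 1 the log2 fold change fell to 0.01 (edgeR adjusted p = 0.967). The coefficient of variation of the furosemide libraries, 0.392%, was below the 2.30% that counting error alone gives at this depth.

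The mineralocorticoid receptor transcript Nr3c2 stood at 17.7, 13.6 and 14.1 CPM in control libraries 1, 2 and 3. After furosemide it stood at 16.7, 16.7 and 15.3 CPM. The furosemide values all lay between control 3 and control 1, so the controls bracketed the treated libraries. The mean was 15.1 ± 2.22 CPM for the controls and 16.2 ± 0.810 CPM for the furosemide libraries (SD, 3 libraries each). The log2 fold change was 0.10 (SE 0.10), and its 95% interval ran from -0.10 to 0.31 (edgeR adjusted p = 0.835). This was the largest estimate of the 4 genes, and 30.0% of tested genes had a larger one in absolute size. Its interval reached from 0.931-fold to 1.24-fold. The value depended on control 1. Without that library the log2 fold change was 0.23 (SE 0.09), or 1.18-fold (unadjusted p = 0.0164 and adjusted p = 0.475 by edgeR). Without control 2 it was 0.03 and without control 3 it was 0.06.

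Fkbp5, the co-chaperone gene, was at 27.3, 29.5 and 26.2 CPM in control libraries 1, 2 and 3. In furosemide libraries 1, 2 and 3 it was at 33.5, 27.6 and 26.1 CPM. Furosemide 1 was the highest of all 6 libraries and furosemide 3 the lowest, so the treated libraries spanned the whole control range. The mean was 27.7 ± 1.66 CPM for the controls and 29.1 ± 3.90 CPM for the furosemide libraries (SD, 3 libraries each). The log2 fold change was 0.07 (SE 0.08), and its 95% interval ran from -0.11 to 0.25 (edgeR adjusted p = 0.884), which is 0.925-fold to 1.19-fold. The direction rested on furosemide 1. Without that library the log2 fold change was -0.044 (edgeR adjusted p = 0.932). Without furosemide 3, the lowest library, it was 0.14 (edgeR adjusted p = 0.742).

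Sgk1, the kinase gene, was at 22.1, 28.8 and 22.7 CPM in control libraries 1, 2 and 3. After furosemide it was at 26.0, 24.0 and 25.5 CPM. Control 2 was above every other library, and the other controls were below all 3 furosemide libraries. The mean was 24.6 ± 3.72 CPM for the controls and 25.2 ± 1.06 CPM for the furosemide libraries (SD, 3 libraries each). The log2 fold change was 0.04 (SE 0.09), and its 95% interval ran from -0.16 to 0.23 (edgeR adjusted p = 0.955), which is 0.897-fold to 1.17-fold. Without control 2 the log2 fold change was 0.17 (SE 0.07), or 1.12-fold (unadjusted p = 0.0336 and adjusted p = 0.710 by edgeR). Without control 1 the direction turned, at -0.03, as it did without control 3, at -0.02. Control 2 is also a library in which 21 tested genes, none of the 4 among them, stood at least 2-fold above every other library, against at most 2 genes in each of the others. Whether their rise and the level of Sgk1 share a source was not tested.

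The count table gives 1 value per gene and does not separate transcription start sites. RefSeq's promoter table for build GRCr8, matched by symbol, holds 6 start sites for 3 of the 4 genes, of which 3 belong to Sgk1, 2 to Nr3c1 and 1 to Fkbp5. The Sgk1 starts are shown because a shift between them would not be seen in a gene total, and the Fkbp5 start because this gene is the other induced readout. The 60 bases before each start are printed 5′ to 3′ on the minus strand, with TATAAA in capitals. The positions are those of the RefSeq table, and the sources used here do not name the build of the count table.
Sgk1, chr1:24807232-24807291: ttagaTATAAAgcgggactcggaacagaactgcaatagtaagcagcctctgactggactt
Sgk1, chr1:24805571-24805630: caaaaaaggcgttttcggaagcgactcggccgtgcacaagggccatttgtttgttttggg
Sgk1, chr1:24804832-24804891: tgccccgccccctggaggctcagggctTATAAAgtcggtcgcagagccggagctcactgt
Fkbp5, chr20:6543556-6543615: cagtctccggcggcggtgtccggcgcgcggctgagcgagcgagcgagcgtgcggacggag

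The Sgk1 starts differ from one another. The first and the third hold TATAAA, beginning at positions -55 and -33 from the start, and the second holds none. The letters TATAAA occurred, on either strand, in 14.2% of the 33469 promoter windows of the table, each of which runs from 250 bases before to 50 after a start. Over the 250 bases before the start, G and C made up 39.2%, 49.6% and 69.6% of the 3 Sgk1 promoters in the order printed and 76% of the Fkbp5 promoter, against a median of 51.2% over all promoters. The letters AGAACA, the half-site of the glucocorticoid response element, were searched on both strands and occurred in 0 of the 6 windows of these genes and in 20.7% of all windows. The full palindrome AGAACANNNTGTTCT, which holds that half-site on each strand, occurred in 5 of the 33469 windows and in none of the 6. This says only that the letters are not in these windows, since hormone response elements are often far from the start.

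**Figure D2:**
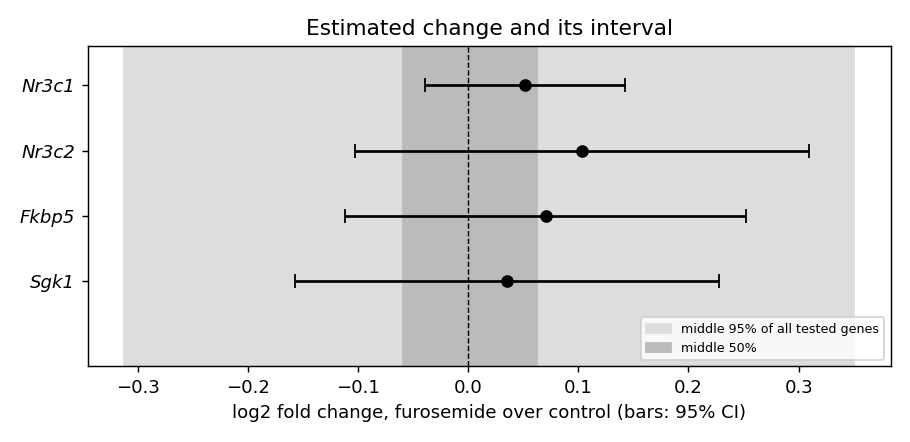
Log2 fold change of each gene, furosemide over control, with its 95% confidence interval (points and bars), over bands that hold the middle 95% (light) and middle 50% (dark) of log2 fold changes among the 16344 tested genes. All 4 intervals include 0 and lie inside the light band, which ends at -0.31 and 0.35.

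The widest of the 4 intervals, that of Nr3c2, ended at 1.24-fold, and those of Sgk1, Fkbp5 and Nr3c1 at 1.17-fold, 1.19-fold and 1.10-fold. These are the upper ends of the intervals and not limits of detection. In tissue of this kind a change in the number of cells that make a transcript cannot be told apart from a change of RNA per cell, and opposite changes in different neurons or glia could offset each other unseen. The estimated biological coefficient of variation between libraries was 3.46% for Nr3c1, 7.08% for Nr3c2, 6.73% for Fkbp5 and 7.06% for Sgk1. The median over all tested genes was 5.19%, so the estimate lay below it for Nr3c1 and above it for the other 3. Genes of like count depth were not compared. In the order of the unadjusted p, 4866 genes stood ahead of Nr3c1, 5840 ahead of Nr3c2, 7784 ahead of Fkbp5 and 12004 ahead of Sgk1. None was near the front of that order, and the order among the 4 depended on single libraries. Without control 2, Sgk1 had the smallest p of the 4 (edgeR unadjusted p = 0.0336) and Nr3c2 the largest (edgeR unadjusted p = 0.757).

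Ratios of counts within a library need no scaling between libraries, and 6 were formed from the 4 genes. The ratio of Nr3c1 to Nr3c2 counts, which follows the balance of the receptor transcripts but not their true proportion, was 4.54 to 6.51 in controls and 5.27 to 5.78 after furosemide. On the log2 scale the controls were at 2.51 ± 0.28 and the furosemide libraries at 2.45 ± 0.07 (SD, 3 libraries each), a difference of -0.06. A two-sided exact permutation test of this ratio had p = 0.8, where 3 libraries against 3 cannot go below 0.1. The ratio was lowest in control 1 and highest in control 2, with the treated libraries between them. The ratio of Fkbp5 to Nr3c1 counts was 0.301 to 0.340 in controls and 0.295 to 0.380 after furosemide, with a mean log2 difference of 0.01 (exact permutation p = 1.0). The ratio of Sgk1 to Nr3c2 counts was 1.25 to 2.12 in controls and 1.43 to 1.66 after furosemide, with a mean log2 difference of -0.07 (exact permutation p = 0.8). The groups overlapped for all 6 ratios, and the Benjamini-Hochberg adjusted value was 1 for each. Each of the 6 differences changed sign when some 1 library was left out, so no direction is read from them.

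In the control libraries the receptor transcripts departed from their group means in opposite directions. In control 1 the departure on the log2 scale was -0.09 for Nr3c1 and 0.24 for Nr3c2. In control 2 it was 0.06 for Nr3c1 and -0.14 for Nr3c2. In furosemide libraries 1, 2 and 3 the departures of Nr3c1 were -0.006, 0.004 and 0.002. That spread is below counting error, so their signs carry little meaning. Deviations had the same sign in 1 of 6 libraries, and their Pearson correlation was -0.95 over the 6 libraries. The value is a description only, because each group's 3 deviations sum to 0 and the controls dominate those of Nr3c1. Without removing the group means the correlation was -0.53 (exact permutation p = 0.228) and Spearman's rho was -0.26 (exact permutation p = 0.658). Without controls 1 and 3, the libraries farthest from the median of Nr3c1, r was -0.32. Their omission narrows the range of Nr3c1, so this value cannot tell whether a relation rested on them. The induced genes Fkbp5 and Sgk1 deviated with the same sign in 5 of 6 libraries. Both were high in control 2 and in furosemide 1, and the exception was furosemide 3.

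Over all 6 libraries the Pearson correlation of Fkbp5 with Sgk1 was 0.52 (exact permutation p = 0.336) and Spearman's rho was 0.54 (exact permutation p = 0.297). Without control 2 and furosemide 1, the libraries farthest from the median of Fkbp5, r was -0.37. Leaving them out narrows the range of Fkbp5, so this value cannot tell whether a relation rested on them. The highest of the 6 pairwise correlations was that of Nr3c1 with Sgk1, at r = 0.64 (exact permutation p = 0.0639) and rho = 0.60 (exact permutation p = 0.242). It was -0.17 without controls 1 and 3. Omitting them narrows the range of Nr3c1, so this value cannot tell whether a relation rested on them. No pair passed after adjustment over the 6 pairs, where the smallest Benjamini-Hochberg values were 0.383 for Pearson's r and 0.594 for Spearman's rho by exact permutation.

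**Figure D3:**
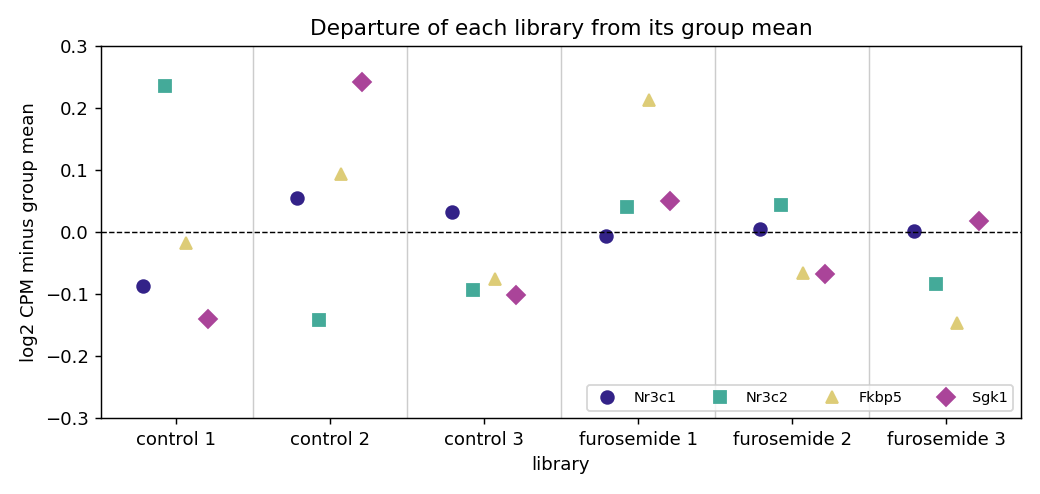
Log2 CPM of each gene minus the mean of its own group, by library, for the 3 control and 3 furosemide libraries. In control 1 and control 2 the receptors Nr3c1 and Nr3c2 lie on opposite sides of 0, and Fkbp5 and Sgk1 lie on the same side in every library except furosemide 3.

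Of 10655 other genes that averaged 10 CPM or more, a small share had a high correlation with each member, which so few libraries allow without any relation. A Pearson r above 0.9 with Nr3c1 was found for 91 of them (0.854%), with Nr3c2 for 60 (0.563%), with Fkbp5 for 70 (0.657%) and with Sgk1 for 38 (0.357%). Whether these counts exceed those of unrelated genes was not tested. The gene most like Nr3c2 was ENSRNOG00000020892, at r = 0.99, with control libraries at 78.4 ± 4.16 CPM and furosemide libraries at 80.6 ± 1.33 CPM (SD, 3 libraries each). The gene most like Fkbp5 was ENSRNOG00000002420, also at r = 0.99, with control libraries at 42.2 ± 1.63 CPM and furosemide libraries at 43.0 ± 2.69 CPM. The reported edgeR test called 0 of the 16344 tested genes, so neither of them was called. Both were picked for likeness to a member over the same libraries, so their group values are not a separate result. The table does not pair them with symbols.

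**Figure D4:**
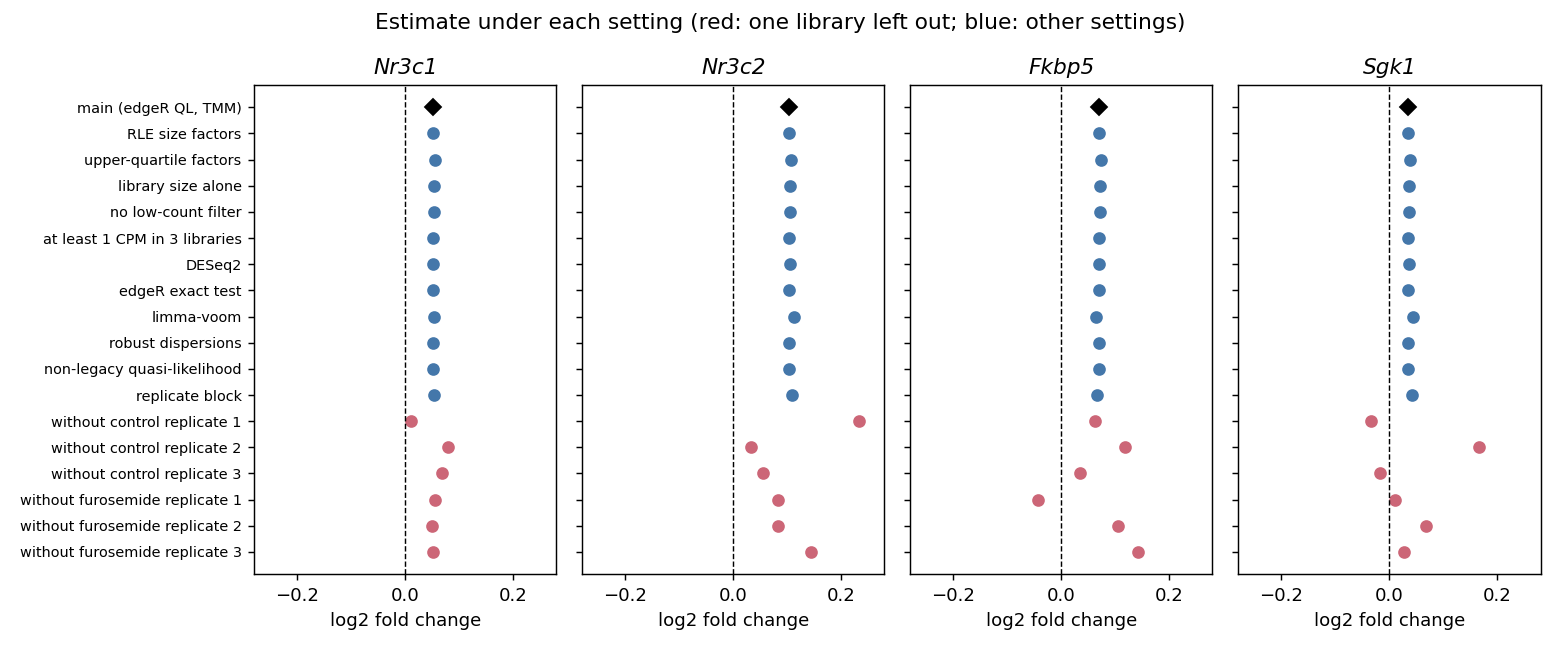
Log2 fold change of each gene, furosemide over control, under the reported setting (diamond), 11 other settings (blue) and omission of each library (red). The blue points stay close to the diamond in every panel, while red points cross 0 for Fkbp5 without furosemide 1 and for Sgk1 without control 1 or control 3.

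Scaling, filter and test moved the 4 estimates little, and the choice of libraries moved them more. Part of this was fixed in advance. Robust dispersions and the non-legacy quasi-likelihood fit change only how variance is estimated, and they left each log2 fold change as it was. With scaling factors of 0.994 to 1.01, the choice of scaling could also move the estimates little. Over the 11 settings that kept all libraries the log2 fold change of Nr3c1 stayed at 0.052 to 0.055, that of Nr3c2 at 0.104 to 0.112, that of Fkbp5 at 0.063 to 0.073 and that of Sgk1 at 0.035 to 0.044. Leaving out 1 library moved Nr3c1 to between 0.01 and 0.08, Nr3c2 to between 0.03 and 0.23, Fkbp5 to between -0.04 and 0.14 and Sgk1 to between -0.03 and 0.17. Over the 17 alternatives, no adjusted p of any of the 4 genes passed, and the smallest was 0.475, for Nr3c2 without control 1 in edgeR.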

How the data were processed

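The authors deposited raw read counts, 1 whole number per Ensembl gene and library. Per the submitters' processing notes the tools were FastQC, TopHat, HTSeq and edgeR (versions unstated). The sources used here do not give the build, annotation or strand setting. Libraries were made with QIAzol, RNeasy columns and a TruSeq mRNA kit, per the labels' protocols. Columns were assigned by group and replicate number in their names.

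Genes were filtered with filterByExpr and compared by the quasi-likelihood F test of edgeR 4.0.16 in R 4.3.3, with TMM scaling and group as the only term. P-values were Benjamini-Hochberg adjusted over 16344 genes, at a threshold of 0.05. The standard error is the absolute log2 fold change divided by the square root of F. Alternatives included DESeq2 1.42.0 and limma 3.58.1 (voom). Ratios and correlations used exact permutation tests in scipy 1.17.1.

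The genes named were the 4 members and those most like them by Pearson r. The members, lists and tests were chosen with earlier results of these data known. The symbol lists of pathway and marker genes were not tested, since 0 of 47357 reference genes carried an Ensembl identifier. The p-values take the pools as the units of replication. The labels do not say that the pools are from separate cohorts or days, so whether the results hold beyond these pools was not tested.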

Additional observations from a re-analysis of the deposited data

How the results depend on the processing

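Nr3c1 and Nr3c2 kept their direction in all 17 alternatives, Fkbp5 in 16 and Sgk1 in 15, and no gene of the 4 passed the adjusted threshold in any. Some alternatives could not turn a direction, such as robust dispersions, which change only how variance is estimated. Fkbp5 turned to -0.044 (log2) without furosemide 1, and Sgk1 to -0.035 without control 1 and -0.017 without control 3. Leaving out 1 library gave log2 fold changes of 0.010 to 0.079 for Nr3c1, 0.032 to 0.233 for Nr3c2, -0.044 to 0.142 for Fkbp5 and -0.035 to 0.166 for Sgk1. Leaving out 1 library gave log2 differences of -0.221 to 0.038 for the Nr3c1 to Nr3c2 ratio, -0.099 to 0.085 for Fkbp5 to Nr3c1, -0.176 to 0.068 for Fkbp5 to Nr3c2, -0.075 to 0.086 for Sgk1 to Nr3c1, -0.256 to 0.124 for Sgk1 to Nr3c2 and -0.063 to 0.101 for Fkbp5 to Sgk1. The 0 genes called over the whole table became 28 without a low-count filter, 40 in DESeq2, 45 in the edgeR exact test, 4 with robust dispersions and 0 to 17 when 1 library was left out, with 17 without control 1. The cause was not tested. With a replicate block 1 gene was called, which was none of the 4. Their log2 fold changes with the block were 0.05 for Nr3c1, 0.11 for Nr3c2, 0.07 for Fkbp5 and 0.04 for Sgk1, with edgeR adjusted p of 0.839 or more. Equal replicate numbers are not stated to be pairs, so the reported setting has no block. Deviations of equally numbered libraries correlated at -0.13, -0.01 and -0.03. This is weak evidence on pairing, since deviations were taken within groups of 3. Nr3c2 had the lowest counts of the 4, at 292 to 381 per library. How far depth limited its estimate was not tested.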
